A study of Mus musculus with 23 samples.

Results

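The genes described here encode 9 enzymes that can take galactose, glucose or their products out of the main sugar pathways. They were chosen by symbol and matched to the Ensembl identifiers of the count files, and all 9 were found among 55416 gene rows. They are the aldose reductase Akr1b3 (ENSMUSG00000001642) and its relatives Akr1b7 (ENSMUSG00000052131), Akr1b8 (ENSMUSG00000029762) and Akr1b10 (ENSMUSG00000061758), which lie on chromosome 6. The others are the aldehyde reductase Akr1a1 (ENSMUSG00000028692, chromosome 4), the sorbitol dehydrogenase Sord (ENSMUSG00000027227, chromosome 2), and 3 genes of the glucuronate-xylulose pathway, Cryl1 (ENSMUSG00000021947, chromosome 14), Dcxr (ENSMUSG00000039450, chromosome 11) and Xylb (ENSMUSG00000035769, chromosome 9). RNA-seq was made from scrapings of proximal small intestine. The mice were of the strain C57BL/6JRccHsd and all are labelled female. From 21 days of age the mice were fed for 3 weeks, until day 42, either pellets with 16% of energy as galactose and 16% as glucose (GAL42, 12 mice) or pellets with 32% of energy as glucose (GLU42, 11 mice). Both groups therefore ate glucose, the galactose group less of it, and the labels describe the diets as the same in all else. A scraping holds many cell types, so fewer cells of a type and less RNA per cell cannot be told apart.

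Cells use galactose mainly through the Leloir pathway, in which galactokinase is the first committed enzyme. Aldose reductase offers a side route: with NADPH it reduces glucose to sorbitol and galactose to galactitol. Sorbitol dehydrogenase oxidises sorbitol to fructose, while galactitol is a poor substrate for it and tends to stay in the cell, which is known from the lens as a cause of cataract. In the glucuronate-xylulose pathway, aldehyde reductase turns glucuronate into gulonate, gulonate is oxidised, and the resulting xylulose is reduced to xylitol, oxidised again and phosphorylated.

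Libraries held 15382583 to 17174721 counts in genes. Enterocyte genes were abundant, with the apolipoprotein gene Apoa4 at 25180 ± 4160 CPM on galactose, against 25055 ± 5244 CPM on glucose (CPM is the read count scaled to library size), while the ileal bile acid genes Fabp6 and Slc10a2 together stayed between 0.174 and 1.45 CPM on galactose, against 0.0593 to 1.63 CPM on glucose. Errors are SD over mice. Galactose replicate 12 held 4 counts of Xist and 225 of Y-linked genes, where each other library held at most 1 Y-linked count, so it goes against the label female, and results are given with and without it where it matters. Galactose replicate 2 held 412 CPM of 6 pancreatic acinar markers, against medians of 5.18 CPM on galactose and 5.16 CPM on glucose. Crypt stem cell markers had 5 of 5 negative log2 differences, with a summed level of 55.9 to 169 CPM on galactose, against 76.1 to 216 CPM on glucose. The differences were also negative for 5 of 5 smooth muscle, 4 of 4 fibroblast, 4 of 4 Paneth, 3 of 3 tuft, 3 of 3 colon and 3 of 4 goblet markers tested, and positive for 3 of 4 enteroendocrine and 3 of 4 leukocyte markers. Enterocyte markers went both ways, with 4 of 7 positive and log2 differences from -0.33 for Anpep to 0.16 for Sis. Proximal intestine markers had 2 of 4 positive. The part of these markers in the results was not tested.

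The aldose reductase relatives Akr1b7, Akr1b10 and Akr1b8 are neighbours on chromosome 6. The 250 bases before the transcription start of each, from RefSeq, are shown because Akr1b7 and Akr1b10 varied together between mice. Akr1b8, with only 10 to 50 counts per library, did not pass the same test with either. Capitals mark the exact runs of at least 10 bases that a window shares with either of the others on the same strand.
Akr1b7 (GRCm38.p6, chr6:34412112-34412361, plus strand): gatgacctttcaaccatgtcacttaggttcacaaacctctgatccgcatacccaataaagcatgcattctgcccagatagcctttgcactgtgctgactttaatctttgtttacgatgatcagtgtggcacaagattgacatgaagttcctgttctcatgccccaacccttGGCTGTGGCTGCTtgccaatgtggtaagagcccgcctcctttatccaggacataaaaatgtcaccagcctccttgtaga
Akr1b10 (GRCm38.p6, chr6:34383997-34384246, plus strand): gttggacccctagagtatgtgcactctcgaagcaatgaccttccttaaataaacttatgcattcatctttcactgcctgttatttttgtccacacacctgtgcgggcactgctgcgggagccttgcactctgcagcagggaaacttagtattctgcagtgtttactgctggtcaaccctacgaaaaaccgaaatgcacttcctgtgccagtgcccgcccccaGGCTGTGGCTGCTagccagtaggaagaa
Akr1b8 (GRCm38.p6, chr6:34353896-34354145, plus strand): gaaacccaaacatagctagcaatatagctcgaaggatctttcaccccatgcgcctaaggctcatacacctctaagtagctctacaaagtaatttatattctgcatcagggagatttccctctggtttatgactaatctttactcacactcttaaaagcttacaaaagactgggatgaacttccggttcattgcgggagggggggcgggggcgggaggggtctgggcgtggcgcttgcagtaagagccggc
Akr1b7 and Akr1b10 shared 1 run, GGCTGTGGCTGCT, of 13 bases, which began 79 bases before the start of Akr1b7 and 28 bases before that of Akr1b10. It occurs in 4 of 32851 promoter windows, these 2 included. Of 7 members with a promoter window, searched on both strands, the CCAAT box (CCAAT) was found in Akr1b7, Cryl1 and Dcxr, and 33.8% of all windows hold it. The TATA box (TATAAA) was found in Akr1b8 alone, against 12.4% of all windows. The core of the tonicity element (TGGAAA) was found in Dcxr alone (18.6% of all windows), and neither the core of the antioxidant response element (TGACNNNGC, 10.2%) nor the GATA site (AGATAA, 9.99%) was found in any of the 7. No motif of this list is contained in another. A match describes letters in the window only.

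Within the aldose reductase family the proximal intestine expressed Akr1b7 most, and Akr1a1 was the most abundant reductase of the 9 genes. Transcript levels do not show which enzymes of the family reduce galactose. Levels were compared per length, as CPM divided by the kilobases of the principal coding transcript. Akr1a1 stood first with 516 ± 53.1 CPM per kilobase over all 23 libraries. Cryl1, the gulonate dehydrogenase, followed with 139 ± 14.5, Sord with 131 ± 25.2 and Akr1b7 with 86.5 ± 25.6 CPM per kilobase. Dcxr, the xylulose reductase, had 37.4 ± 5.45 CPM per kilobase. A gap followed, and Akr1b3 (7.06 ± 1.58), the xylulokinase Xylb (6.82 ± 1.12), Akr1b10 (5.59 ± 1.36) and Akr1b8 (1.24 ± 0.461 CPM per kilobase) came last.

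Neighbours in this order were not all apart. Akr1a1 lay above Cryl1 in 23 of 23 libraries, Dcxr above Akr1b3 in 23 of 23, and Akr1b10 above Akr1b8 in 23 of 23, with no overlap of ranges in any of these 3 pairs. Cryl1 lay above Sord in 17 of 23 libraries, Sord above Akr1b7 in 21, Akr1b7 above Dcxr in 22, Akr1b3 above Xylb in 12 and Xylb above Akr1b10 in 19, and the ranges overlapped in each of these pairs. The place of Akr1b3 depended on the length used. Its longest annotated transcript has 5024 bases and its principal coding transcript 1387, and by the longest transcript Akr1b3 had 1.95 ± 0.436 CPM per kilobase, under Akr1b10 in 23 of 23 libraries. The principal transcript was taken up after the data were seen.

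**Figure D1:**
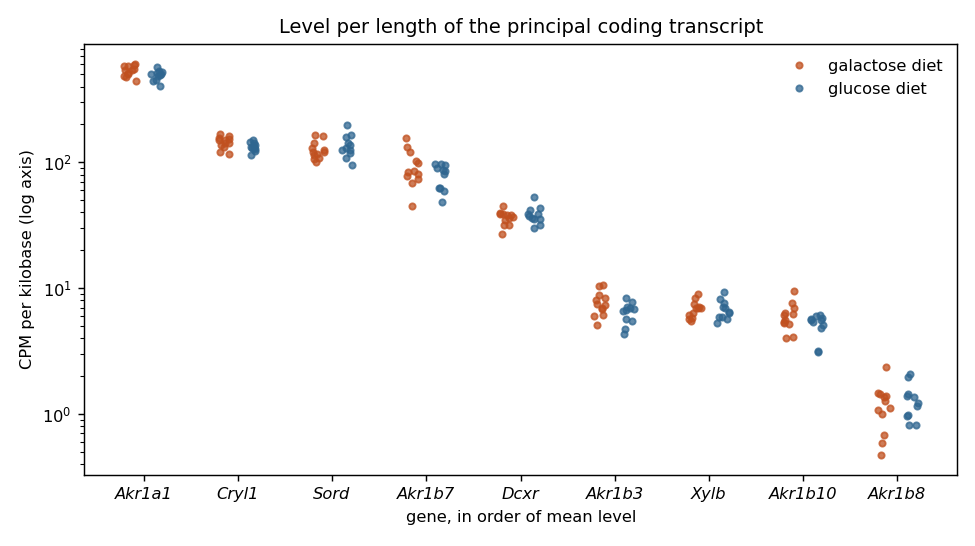
Level of each gene in each library, as CPM per kilobase of the principal coding transcript on a log axis, with genes in order of mean level over both diets. Akr1a1 stands first at a mean of 516 CPM per kilobase, Akr1b7 is the highest of the 4 genes of the aldose reductase family at 86.5, and Akr1b8 is last at 1.24.

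Within the family, Akr1b7 made up 85.5 ± 4.13% of the transcript signal per length on galactose and 85.6 ± 2.67% on glucose. Akr1b3, the aldose reductase of the polyol pathway in most tissues, made up 7.71 ± 3.52% on galactose and 7.25 ± 1.88% on glucose. Akr1b10 held 5.66 ± 0.808% on galactose and 5.64 ± 0.939% on glucose. Akr1b8 held 1.12 ± 0.398% on galactose and 1.46 ± 0.553% on glucose. The share of Akr1b7 over all libraries ran from 74.1% to 89.9%, so it was the main form in each of the 23. By the longest transcript its share was 90.5 ± 2.14% on galactose and 90.4 ± 1.57% on glucose. For comparison, Galk1, the galactokinase of the Leloir pathway, had 23.6 CPM per kilobase of its longest transcript over all libraries. On the same scale Akr1b7 had 86.5 and Akr1b3 1.95.

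Counting affects some members more than others. Of the 50-base windows along the longest transcript of Sord, 31.3% also occur in the pseudogene Gm6652, and for Akr1b7 15.8% occur in other genes, chiefly in Gm13857, which overlaps 27.2% of its exon bases on the opposite strand. Gm6652 itself received 14 to 43 counts per library and Gm13857 0 to 6. The strand setting of the counting is not given in the sources used here, and reads that fit 2 genes may be counted for neither, so the levels of Sord and Akr1b7 are uncertain. The share of such windows was 6.89% for Akr1b3, 3.21% for Akr1b8, 3.18% for Akr1b10, 1.10% for Akr1a1 and 0% for Cryl1, Dcxr and Xylb.

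Between the diets none of the 9 genes passed the test. By edgeR's quasi-likelihood test with Benjamini-Hochberg adjustment over 13405 tested genes, 0 of 9 members had an adjusted p under 0.05, and 0% of all tested genes did. All 9 passed the filter on low counts, and the libraries of the diets overlapped for 9 of 9, as for all other tested genes. At an unadjusted p under 0.05 there was 1 member, Akr1b3, higher on galactose, where 14.4% of all tested genes reached that level, 8.63% higher and 5.72% lower. The log2 differences, galactose minus glucose, were positive for 6 of 9 members (5 of 9 with upper-quartile scaling, library totals or no filter, where Xylb changed sign) with a median of 0.12, against 49.5% of all tested genes positive and a median of -0.0017. DESeq2 gave an adjusted p to 6 of 9 members, not to Akr1b3, Akr1b8 or Akr1b10, and called 0 of these 6, where it called 1.84% of the 7168 genes to which it gave one. By limma-voom 0 of 9 were called, and likewise when its libraries were weighted by quality, where 1.25% of all tested genes were called.

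**Figure D2:**
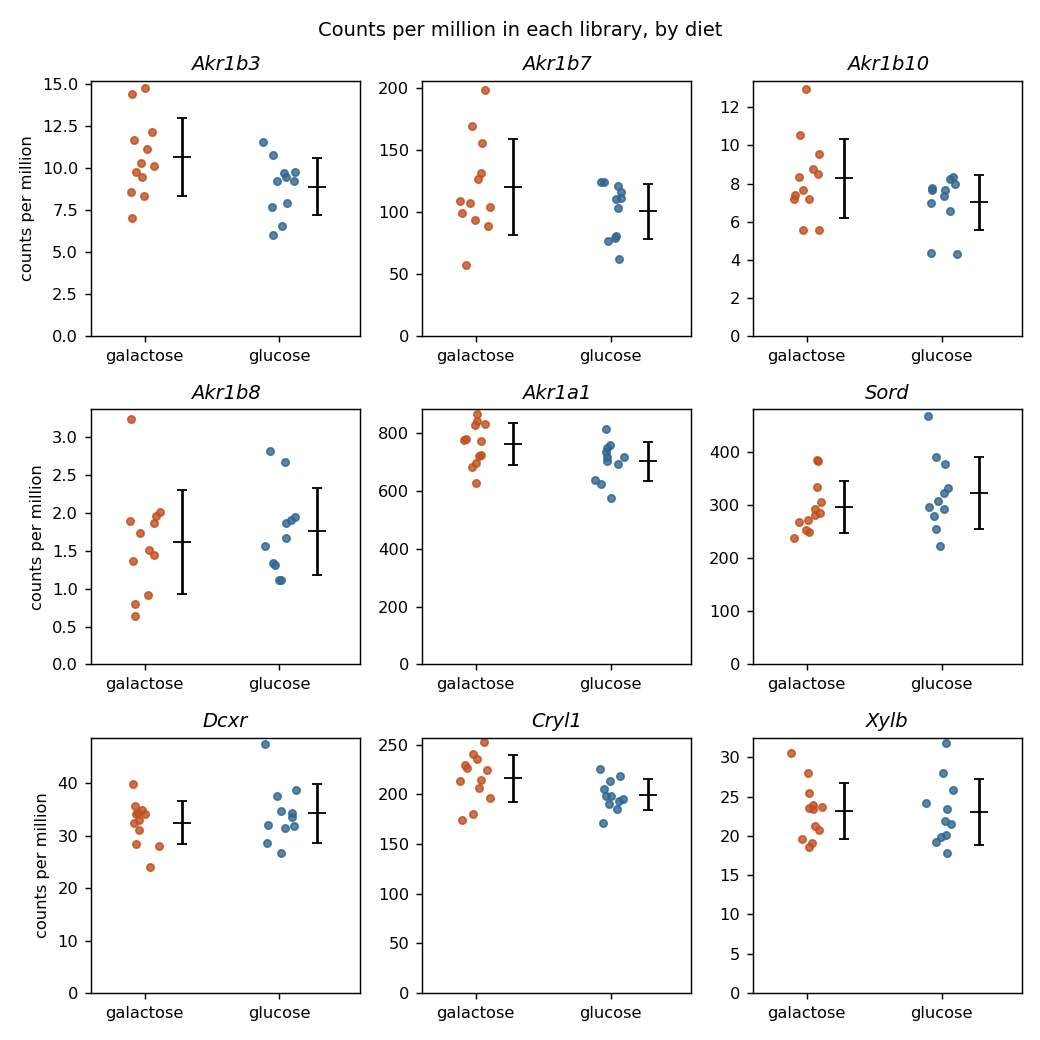
CPM of each of the 9 genes in each library, with 1 point per mouse, galactose on the left and glucose on the right of each panel, and bars for mean ± SD (n = 12 and 11). The diets overlap in every panel, and the mean of Akr1b3 is 10.6 CPM on galactose and 8.89 CPM on glucose.

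Akr1b3 had the smallest unadjusted p of the 9. It ran from 7.02 through a median of 10.2 to 14.7 CPM on galactose, and from 6.03 through 9.22 to 11.5 CPM on glucose. Of 12 galactose libraries, 9 lay above the glucose median. The means were 10.6 ± 2.33 CPM on galactose, against 8.89 ± 1.69 CPM on glucose. The log2 difference was 0.26 ± 0.12 (SE; 95% interval 0.01 to 0.50; adjusted p = 0.329 by edgeR). The highest value of all 23 belonged to galactose replicate 12, the library that goes against its sex label, and the lowest to glucose replicate 11. Without galactose replicate 12 the difference was 0.20, and without glucose replicate 11 it was 0.21.

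Akr1b7, which in the mouse adrenal gland reduces an aldehyde by-product of steroid synthesis, had a higher mean but a lower median on galactose. It ran from 57.5 through a median of 108 to 199 CPM on galactose, and from 62.0 through 110.2 to 124 CPM on glucose. The galactose libraries spread further to both sides, and 5 of 12 lay above the glucose median. The means were 120.1 ± 38.8 CPM on galactose, against 101 ± 22.2 CPM on glucose. The log2 difference was 0.25 ± 0.15 (SE; 95% interval -0.06 to 0.57; adjusted p = 0.453 by edgeR). Galactose replicate 12 had the lowest Akr1b7 value of the 23 libraries and galactose replicate 5 the highest. The difference was 0.32 without replicate 12 and 0.17 without replicate 5. The 4 adrenal cortex markers summed to 0.753 to 1.79 CPM on galactose, against 0.652 to 1.98 CPM on glucose. Most of this was Star, with a mean of 1.09 CPM on galactose, against 1.27 CPM on glucose. Cyp11a1 had a mean of 0.026 CPM on galactose, against 0.070 CPM on glucose, and Cyp11b1 and Cyp21a1 were at or near 0.

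Akr1b10 ran from 5.56 through a median of 8.0 to 12.9 CPM on galactose, and from 4.29 through 7.64 to 8.33 CPM on glucose. Its mean was 8.27 ± 2.07 CPM on galactose, against 7.01 ± 1.43 CPM on glucose, with 7 of 12 galactose libraries above the glucose median. The log2 difference was 0.24 ± 0.13 (SE; 95% interval -0.04 to 0.51; adjusted p = 0.425 by edgeR). Galactose replicate 5 was again the highest library, and without it the difference was 0.16.

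Akr1b8, an aldose reductase-like enzyme first described as a protein induced by fibroblast growth factor, was low, with 10 to 50 counts per library. By mean CPM, 14.5% of tested genes lay at or below Akr1b8. Akr1b8 ran from 0.639 through 1.62 to 3.23 CPM on galactose, and from 1.11 through 1.66 to 2.82 CPM on glucose. The means were 1.61 ± 0.690 CPM on galactose, against 1.75 ± 0.572 CPM on glucose, and the log2 difference was -0.12 ± 0.22 (SE). Its 95% interval ran from -0.57 to 0.33 and so held differences of either sign. Without galactose replicate 8, the highest library, the difference was -0.25, and without glucose replicate 6 it was -0.03.

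Akr1a1, which in mice also makes gulonate for vitamin C synthesis, had the narrowest spread relative to its mean on galactose, with a coefficient of variation of 9.62% on galactose and 9.61% on glucose. It ran from 627 through 772 to 866 CPM on galactose, and from 576 through 715 to 814 CPM on glucose. Of 12 galactose libraries, 9 lay above the glucose median. The means were 761 ± 73.3 CPM on galactose, against 702 ± 67.4 CPM on glucose. The log2 difference was 0.12 ± 0.06 (SE; 95% interval -0.01 to 0.25; adjusted p = 0.387 by edgeR).

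Sord ran from 238 through a median of 283 to 384 CPM on galactose, and from 223 through 307 to 468 CPM on glucose. Most galactose libraries, 9 of 12, lay below the glucose median. The means were 296 ± 48.8 CPM on galactose, against 322 ± 68.4 CPM on glucose. The log2 difference was -0.13 ± 0.10 (SE; 95% interval -0.34 to 0.09; adjusted p = 0.599 by edgeR). Glucose replicate 11 held the highest Sord, Dcxr and Xylb values and the lowest Akr1b3 and Akr1b10 values of the 23 libraries. Without it the Sord difference was -0.06, the Dcxr difference -0.02 and the Xylb difference 0.06.

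The remaining members of the glucuronate-xylulose pathway, Cryl1, Dcxr and Xylb, differed in level, and none passed the test between the diets. Cryl1 ran from 174 through 219 to 253 CPM on galactose, and from 171 through 198 to 226 CPM on glucose, with 9 of 12 galactose libraries above the glucose median. Its means were 216 ± 23.9 CPM on galactose, against 199.6 ± 15.6 CPM on glucose, and the log2 difference was 0.12 ± 0.06 (SE; 95% interval -0.01 to 0.24; adjusted p = 0.384 by edgeR). Dcxr had 32.5 ± 4.12 CPM on galactose, against 34.3 ± 5.61 CPM on glucose (log2 difference -0.08 ± 0.08 (SE), interval -0.25 to 0.09). Xylb had 23.1 ± 3.61 CPM on galactose, against 23.03 ± 4.18 CPM on glucose (0.0074 ± 0.09, interval -0.19 to 0.20). For Dcxr and Xylb, 6 and 7 of 12 galactose libraries lay above the glucose median.

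**Figure D3:**
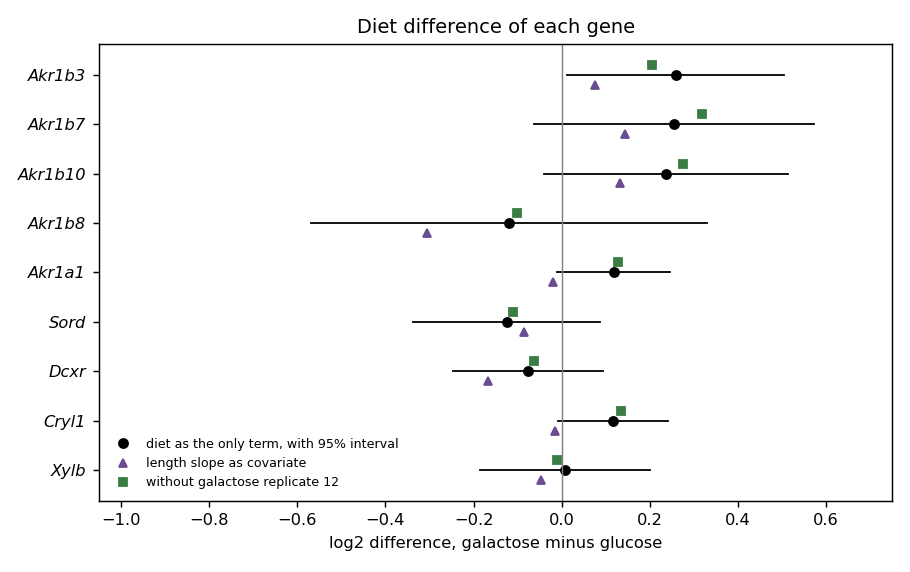
Log2 difference between the diets, galactose minus glucose, for each gene, as the estimate with its 95% interval (circles), with the length slope of each library as a covariate (triangles) and without galactose replicate 12 (squares). The interval of Akr1b3 starts at 0.01, and with the length slope Akr1a1 moves to -0.02 and Cryl1 to -0.02.

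Some of these values moved with a property of the libraries. For each library, log2 CPM centred per gene was regressed on log2 transcript length over the tested genes, which gives a length slope, and a negative slope means that short transcripts are relatively high. It was -0.0289 ± 0.0553 on galactose and 0.0315 ± 0.0450 on glucose. With diet means removed, Akr1a1 went against the slope over 23 libraries (r = -0.81, rho = -0.80, permutation p = 2e-05, adjusted p = 0.00018 over 9 members; r = -0.77 without the 2 libraries of most extreme slope). Cryl1 did so too (r = -0.76, rho = -0.77, permutation p = 7e-05, adjusted p = 0.000315; r = -0.73 without those 2). For Akr1b3 the relation was weaker (r = -0.54, rho = -0.54, permutation p = 0.0102, adjusted p = 0.0305), and r was -0.37 without those 2 libraries. For Dcxr r was -0.37 and rho -0.50 (adjusted permutation p = 0.192 and 0.0416). The other 5 members had r between -0.23 and 0.10. With the slope as a covariate in the diet test, Akr1b3 stood at 0.08, Akr1b7 at 0.14 and Akr1b10 at 0.13 (log2 differences), while Akr1b8 stood at -0.31, Dcxr at -0.17 and Sord at -0.09. Akr1a1 turned to -0.02, Cryl1 to -0.02 and Xylb to -0.05, so 3 of 9 members were then positive. Over all genes, the count at an unadjusted p under 0.05 by edgeR was 886 with the slope in the test and 1924 without it. The slope was computed from these same counts and its mean differed between the diets. An effect of diet and a property of the libraries therefore cannot be told apart here, and the covariate may remove either.

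Akr1b3 and Sord, named for the first and second step of the polyol pathway, were compared within each library. Akr1b7, the main form of the family here, does not enter this measure. The measure was the log2 ratio of Akr1b3 to Sord counts, which describes transcripts only. It ran from -5.77 through a median of -4.79 to -4.10 on galactose, and from -6.27 through -5.09 to -4.37 on glucose. Of 12 galactose libraries, 10 lay above the glucose median, although the ranges overlapped. The means were -4.81 ± 0.47 on galactose and -5.17 ± 0.51 on glucose, a difference of 0.37 (two-sided permutation test with 100000 resamples, p = 0.0848). Leaving out 1 library at a time gave p between 0.0244 and 0.174, and under 0.05 for 3 of 23 libraries, which were galactose replicates 7 and 10 and glucose replicate 8. The difference was 0.43 without galactose replicate 7, 0.45 without galactose replicate 10 and 0.45 without glucose replicate 8. It was 0.30 (p = 0.148) without galactose replicate 12, which had the highest ratio, and 0.26 (p = 0.174) without glucose replicate 11.

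**Figure D4:**
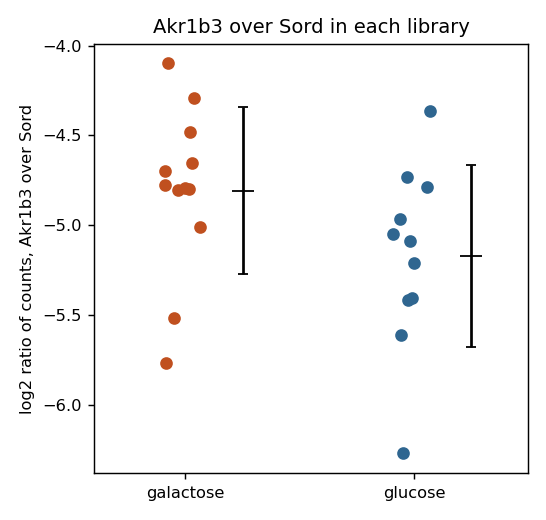
Log2 ratio of Akr1b3 to Sord counts in each library, with 1 point per mouse and bars for mean ± SD, galactose on the left and glucose on the right. The means are -4.81 on galactose and -5.17 on glucose, and the ranges of the diets overlap.

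Among themselves, 3 of 36 pairs of members varied together across mice. Correlations were taken on log2 CPM with diet means removed, over 23 libraries, with permutation within diets. Akr1b7 and Akr1b10 went together most closely (r = 0.79, rho = 0.72, permutation p = 3e-05, adjusted p = 0.00108; by rho 0.00864). The relation held within galactose (r = 0.85) and within glucose (r = 0.72), and r was 0.71 without galactose replicate 12 and glucose replicate 11, the libraries farthest from the median of Akr1b7. Akr1b8 had r = 0.31 with Akr1b7 and r = 0.24 with Akr1b10 (adjusted permutation p = 0.504 and 0.579). Within galactose these were 0.43 and 0.56, and within glucose 0.06 and -0.26. Akr1b8 had only 10 to 50 counts per library, and the part of such low counts in its correlations was not tested. Akr1a1 went with Cryl1 (r = 0.66, rho = 0.56, adjusted permutation p = 0.0139 and 0.0632) and with Dcxr (r = 0.59, rho = 0.58, adjusted permutation p = 0.0463 and 0.0632), so neither passed by rho. The relation of Akr1a1 with Dcxr also did not pass with diet means kept in (r = 0.46, adjusted permutation p = 0.176) or with scaling to library totals (r = 0.55, adjusted permutation p = 0.114). Akr1a1 and Cryl1 both followed the length slope, and the part of the slope in their relation was not tested. Akr1b3 and Sord had r = -0.47 (rho = -0.30, adjusted permutation p = 0.147 and 0.485), and r was -0.20 without galactose replicate 10 and glucose replicate 11.

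**Figure D5:**
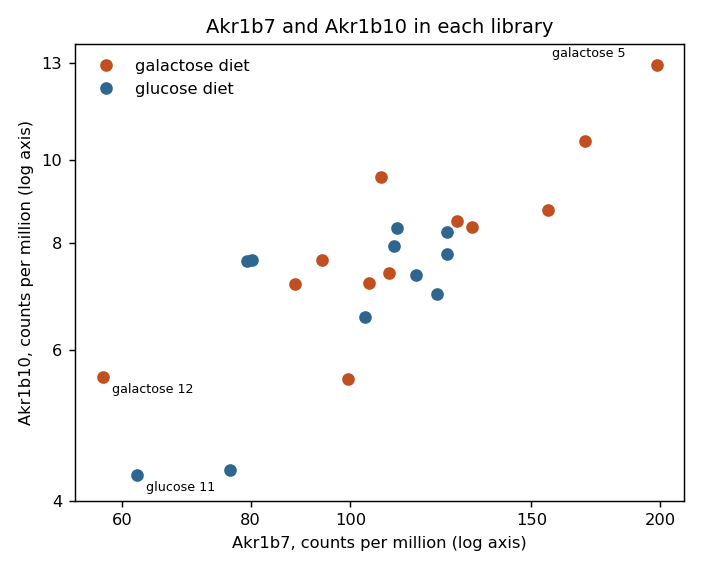
CPM of Akr1b10 against CPM of Akr1b7 in each library, both on log axes, with 1 point per mouse and colours for the diets. The 2 genes rise together over both diets (r = 0.79 with diet means removed), with galactose replicate 5 highest in both.

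The genes whose log2 CPM went most closely with a member, out of 12358 named genes and over 23 libraries with diet means removed, are given as a description. For Akr1a1 they were Fis1 (r = 0.94, rho = 0.94), a mitochondrial fission protein, Ap2s1 (r = 0.93, rho = 0.92), a clathrin adaptor subunit, and Trir (r = 0.90, rho = 0.89). For Cryl1 they were the proteasome subunit Psmd8 (r = 0.90, rho = 0.86), Mea1 (r = 0.88, rho = 0.85) and the respiratory chain subunit Cox6a1 (r = 0.85, rho = 0.81). These 6 genes have longest transcripts of 620 to 1983 bases, against a median of 3228 for all tested genes. The genes named below for Dcxr have 645 to 1985 bases, and those for the other members 1281 to 6376. The part of transcript length in these lists was not tested. Sord went most closely with the water channel Aqp1 (r = 0.81, rho = 0.78), with Jade1 (r = 0.80, rho = 0.75) and with the angiotensin-converting enzyme Ace of the brush border (r = 0.79, rho = 0.69). Ace had 3467 ± 585 CPM on galactose, against 4355 ± 880 CPM on glucose (log2 difference -0.33 ± 0.10 (SE), adjusted p = 0.174 by edgeR).

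Dcxr went with Guca2b (r = 0.84, rho = 0.86), the hormone uroguanylin, with the sterol receptor gene Nr1h3 (r = 0.82, rho = 0.85) and with Gchfr (r = 0.82, rho = 0.82). Xylb went with Rtn4ip1 (r = 0.82, rho = 0.83), Ttc13 (r = 0.82, rho = 0.76) and Ahcy (r = 0.81, rho = 0.82). For Akr1b7 the list was Akr1b10 itself, then Vps26a (r = 0.73, rho = 0.76) of the retromer and Tmem189 (r = 0.72, rho = 0.63). For Akr1b10 it was Ppt1 (r = 0.82, rho = 0.67), a lysosomal thioesterase, then Akr1b7 and Mal2 (r = 0.76, rho = 0.70). Akr1b3 went with Zfp275 (r = 0.78, rho = 0.76) and Apobec3 (r = 0.74, rho = 0.74).

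Genes around these routes also passed no test over all genes by edgeR. In the list of other aldo-keto reductases, 6 of 12 were tested and 5 were positive (median 0.15). At an unadjusted p under 0.05 there were 2 of these 6, both higher on galactose, as were 8.63% of all tested genes. By the same measure the fructose list had 3 of 4 higher and the Leloir list 3 of 5, with 0 lower in each. Akr1c14 had 54.6 ± 11.6 CPM on galactose, against 39.6 ± 8.89 CPM on glucose (log2 difference 0.46 ± 0.12 (SE), adjusted p = 0.138), and Akr7a5 had 149 ± 20.6 CPM on galactose, against 132 ± 16.5 CPM on glucose (0.18 ± 0.08, adjusted p = 0.303). Of the glucuronate and pentose phosphate neighbours 10 of 12 were tested, with 7 positive (median 0.04). Taldo1, the transaldolase, had 511 ± 47.3 CPM on galactose, against 460.0 ± 39.7 CPM on glucose (0.15 ± 0.06, adjusted p = 0.235). Ugdh, which makes UDP-glucuronate, had 268 ± 23.2 CPM on galactose, against 299 ± 39.9 CPM on glucose (-0.16 ± 0.07, adjusted p = 0.285). Miox, which opens inositol to glucuronate in the kidney, was at 0 counts in all 23 libraries.

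The list named for fructose after sorbitol had 4 of 4 tested members positive (median 0.32), against 49.5% of all tested genes. Among the 4 was Fn3krp, which is also counted in the glycation defence list. Khk, the fructokinase, had 737 ± 104 CPM on galactose, against 562 ± 87.2 CPM on glucose (log2 difference 0.39 ± 0.09 (SE), adjusted p = 0.135). In the Leloir list 4 of 5 were positive (median 0.15), with Galt at 63.7 ± 4.79 CPM on galactose, against 57.1 ± 5.37 CPM on glucose (adjusted p = 0.205). The osmolyte list, genes of the response of cells to osmotic stress and not a measure of polyols, had 5 of 6 tested and 0 positive (median -0.10). Its factor Nfat5 had 56.3 ± 10.9 CPM on galactose, against 65.4 ± 10.1 CPM on glucose (-0.21 ± 0.10, adjusted p = 0.324), and the taurine carrier Slc6a6 had 222 ± 30.1 CPM on galactose, against 239 ± 30.1 CPM on glucose (-0.11 ± 0.08, adjusted p = 0.531).

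Other carbonyl reductases and aldehyde dehydrogenases went both ways, with 4 of 9 tested genes positive and a median of -0.01. Aldh1a1, a retinal dehydrogenase, had 229 ± 74.9 CPM on galactose, against 321 ± 93.7 CPM on glucose (-0.49 ± 0.17, adjusted p = 0.203), and Adh5, the formaldehyde dehydrogenase, had 51.1 ± 5.11 CPM on galactose, against 46.2 ± 3.70 CPM on glucose (0.15 ± 0.06, adjusted p = 0.246). In the glycation defence list 3 of 4 tested genes were positive (median 0.17). Hagh, a glyoxalase, had 112 ± 13.4 CPM on galactose, against 96.2 ± 8.28 CPM on glucose (0.22 ± 0.06, adjusted p = 0.139). Fn3krp, which belongs to this list and to that of fructose, had 2.03 ± 0.696 CPM on galactose, against 1.64 ± 0.484 CPM on glucose (0.31 ± 0.19, adjusted p = 0.468). The length slope given above had a lower mean in the galactose libraries, and its part in the single lists was not tested.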

How the data were processed

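RNA-seq libraries of 23 mice, 1 per mouse, were analysed. The authors deposited raw read counts per gene, made with STAR and HTSeq on GRCm39 per the submitters' processing notes. The sources used here give no versions, annotation release, strand setting or read length. The 5 rows that name no gene held 13.5% of reads and were left out. Symbols came from a table by Ensembl identifier (52083 of 55416 rows matched), lengths from an annotation of another build, by identifier, and promoters from RefSeq (GRCm38.p6). Counts were filtered with filterByExpr, scaled by TMM and tested with edgeR 4.0.16 (R 4.3.3), diet as the only term. CPM values use these scaled library sizes. Alternatives were DESeq2 1.42.0, limma 3.58.1, other scalings and filters, the length slope, and each library left out. No 2 libraries were copies (chi-square per degree of freedom of at least 12.9 in 121 pairs within diets). Members, lists and tests were chosen with earlier results of these data known. The text names all 9 members, the 3 genes most like each member of at least 5 CPM, and the 2 genes of smallest p of each list. The principal transcript length and the slope correlations were added after the data were seen. Some genes that this rule takes are not reported here.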

Additional observations from a re-analysis of the deposited data

How the results depend on the processing

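No paired analysis was possible because the replicate numbers only name the mice, in the order of their records. Over 32 alternatives, 0 members were called, of 9 in each but DESeq2, which gave an adjusted p to 6 (lowest adjusted p = 0.139, for Akr1a1 by limma-voom with quality weights). Over all genes, edgeR called 0, DESeq2 132 (of 7168 with an adjusted p) and limma-voom with quality weights 167, and edgeR called 0 to 219 with 1 library left out, where the 219 (1.64% of 13338 tested) came without galactose replicate 7. The log2 difference of Xylb changed sign to -0.0031 with upper-quartile scaling, -0.0050 with library totals, -0.00073 without a filter and -0.048 with the length slope, and lay between -0.040 and 0.063 with 1 library left out. With the length slope Akr1a1 stood at -0.019 and Cryl1 at -0.016. No other member changed sign under these alternatives. The difference in the log2 ratio of Akr1b3 to Sord lay between 0.26 and 0.45 with 1 library left out. Of 36 pairs of members, 3 were called by r and 1 by Spearman's rho (Akr1b7 with Akr1b10). By merged exons the level was 1.17 CPM per kilobase for Akr1b3 and 2.17 for Akr1b10. The causes of these changes were not tested. Akr1b8 had the fewest counts of the members, 10 to 50 per library.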
